A study of Mus musculus with 6 samples.

Results

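The genes described here are 7 genes that mark basophils and mast cells, read in bulk RNA sequencing of CD11b-positive bone marrow cells. They were found by symbol in a deposited table of 54532 genes, and all 7 are listed there once: Mcpt8, Prss34, Cpa3, Fcer1a, Ms4a2, Hdc and Gata2. The names were chosen by cell type and with the FPKM values and genotype differences of these same libraries already known, so both are described below without a test. The cells were purified by positive selection for CD11b from the tibias of mice aged 12 weeks, with 3 numbered libraries labelled Tshr-/- and 3 labelled Tshr+/+. The number of mice behind a library is not stated. All 6 libraries also carry a treatment label that names osteoclast differentiation, with no time given. The gene Tshr codes for the thyrotropin receptor, and the 2 genotypes are compared to see what differs in these cells when it is missing. A further label calls the mutant animals a knockdown, and the labels name neither the mutated part of Tshr nor a strain. Whether libraries came from separate animals or days is not stated either, so p-values measure the spread between these libraries, which may be technical.

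Basophils and mast cells are rare granulocytes that carry the high-affinity receptor for IgE and release histamine and proteases from their granules when the receptor is cross-linked. Basophils mature in the bone marrow and circulate in the blood, whereas mast cells complete their maturation in tissues. Both lineages depend on the transcription factor GATA2, and mouse basophils carry CD11b on their surface, so a selection for CD11b can retain them.

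Summed over genes, depth ran from 14698126 to 17976477 fragments per library. Itgam, the gene of CD11b, averaged 109 ± 23.2 FPKM across Tshr-/- and 117 ± 7.33 FPKM across Tshr+/+ libraries (SD, n = 3 each). FPKM are fragments scaled to gene length and to a library size, which here was not the summed depth. The size implied by the values was 0.994, 0.954 and 1.12 times that sum in Tshr-/- 1, 2 and 3. It was 0.966, 0.939 and 1.08 times the sum in Tshr+/+ 1, 2 and 3, so FPKM were scaled lowest in the libraries numbered 3. Tshr itself stood at 0.414, 0.297 and 0.00825 FPKM (40, 25 and 1 fragments) for the labels Tshr-/- 1, 2 and 3, against 0.537, 0.552 and 0.405 FPKM (55, 55 and 45 fragments) for Tshr+/+ 1, 2 and 3. Tshr-/- 1 thus held as much Tshr as Tshr+/+ 3, and Tshr-/- 2 held more than a trace, so every group name here is the label of its libraries. Whether these fragments lie in the mutated part of the gene cannot be read from a value per gene. The libraries numbered 3 also stood apart: the counts of Tshr+/+ 3 differed from those of Tshr-/- 3 with a chi-square per degree of freedom of 20.5, but from those of Tshr+/+ 1 and 2 with 64.2 and 59.6. For these reasons the differences of the 7 genes are given with all libraries, then leaving out the pair numbered 3, then leaving out Tshr-/- 1 and 2. Those of other genes and of marker sums are given with all libraries only.

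Transcripts of basophil proteases were well detected and those of mature mast cells were at or near 0. Mcpt8 and Prss34, serine protease genes that mark mouse basophils, averaged 33.9 and 80.8 FPKM over the 6 libraries. Of 12 mast cell markers, 5 were listed at 0 in every library: the tryptase gene Tpsb2, the chymase gene Cma2, the protease genes Mcpt1 and Mcpt9, and the receptor gene Mrgprb2. A count of 0 allows up to 3 fragments, which for Tpsb2 corresponds to 0.138 to 0.198 FPKM in a library. The chymase gene Cma1 had 0.0654 to 0.319 FPKM in Tshr-/- and 0.0538 to 0.166 FPKM in Tshr+/+ libraries, from 16 fragments in all. Mcpt2, Mcpt4, Tpsab1 and Tpsg1 had 2, 1, 1 and 1 fragments over the 6 libraries. Slc6a4, the serotonin transporter gene, had at most 0.0960 FPKM in Tshr-/- and 0.130 FPKM in Tshr+/+ libraries.

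Kit was the 1 mast cell marker with more than a trace, at 5.26 ± 0.984 FPKM in Tshr-/- and 5.47 ± 0.601 FPKM in Tshr+/+ libraries (SD, n = 3 each). It encodes the receptor of stem cell factor, which progenitors carry as well, and it made up most of the sum of the mast cell list, which was 4.55 to 6.78 FPKM in Tshr-/- and 4.99 to 6.06 FPKM in Tshr+/+ libraries. The sum of the 9 protease genes of that list and Mrgprb2 was 0.0654 to 0.363 FPKM in Tshr-/- and 0.0819 to 0.210 FPKM in Tshr+/+ libraries. Basophil proteases were thus clearly present, and the transcripts that define mature mast cells were close to absent.

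**Figure D1:**
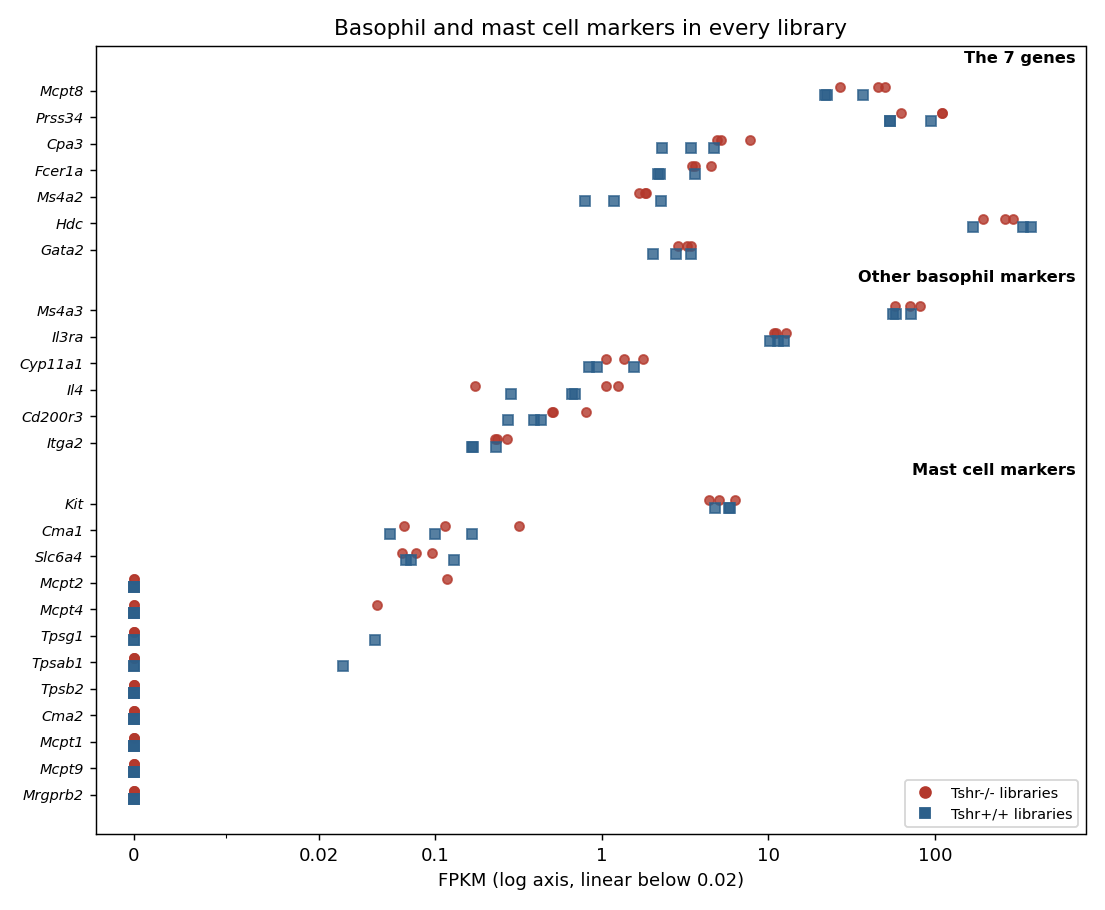
FPKM of the 7 genes described here, 6 other basophil markers and 12 mast cell markers in each library, on a log axis that is linear below 0.02; circles are Tshr-/- and squares Tshr+/+ libraries. Mcpt8 and Prss34 lie at 21.8 FPKM or more in every library, whereas 5 mast cell markers lie at 0 in all of them.

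Most other basophil markers were present at lower levels than Mcpt8 and Prss34. Cd200r3, an activating receptor of basophils and mast cells, had 0.800, 0.512 and 0.506 FPKM in Tshr-/- 1, 2 and 3, against 0.275, 0.393 and 0.434 FPKM in Tshr+/+ 1, 2 and 3. These values did not overlap between the groups, which was also so for 6.77% of all genes tested. Cd200r3 itself lay under 1 FPKM in every library and was not tested. Il4, a cytokine gene of basophils, had 1.06, 0.174 and 1.25 FPKM in Tshr-/- libraries, against 0.287, 0.689 and 0.661 FPKM in Tshr+/+ libraries, from 90 fragments in all. Its lowest value thus lay in a Tshr-/- library. Itga2, the gene of the surface integrin CD49b, had 0.230 to 0.271 FPKM in Tshr-/- and 0.167 to 0.230 FPKM in Tshr+/+ libraries.

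Cyp11a1, a steroid-synthesis enzyme gene, averaged 1.39 ± 0.350 FPKM in Tshr-/- and 1.11 ± 0.387 FPKM in Tshr+/+ libraries (SD, n = 3 each). Il3ra, the receptor chain for interleukin-3, a growth factor of basophils, had 11.5 ± 1.09 and 11.3 ± 1.08 FPKM in Tshr-/- and Tshr+/+ libraries. Ms4a3, which granulocyte-monocyte progenitors express too, averaged 70.0 ± 11.9 FPKM in Tshr-/- and 62.1 ± 8.82 FPKM in Tshr+/+ libraries. These 3 markers were tested with limma over all genes and did not pass (adjusted p = 0.9997 for each).

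Ordered by level per length over the 6 libraries, the 7 genes ran from Hdc through Prss34, Mcpt8, Cpa3, Fcer1a and Gata2 to Ms4a2. The ranges of Hdc, Prss34, Mcpt8 and Cpa3 did not overlap from each to the next: Hdc was at least 168 FPKM where Prss34 was at most 110.8 FPKM, Prss34 at least 53.3 FPKM where Mcpt8 was at most 49.95 FPKM, and Mcpt8 at least 21.8 FPKM where Cpa3 was at most 7.74 FPKM. The ranges of Cpa3, Fcer1a, Gata2 and Ms4a2 overlapped from each to the next. Within libraries, Fcer1a exceeded Gata2 in 5 of 6, and the other neighbours kept their order in 6 of 6.

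The granule proteases varied most between libraries. Mcpt8 (ENSMUSG00000022157, chr14:56082166-56085273 of GRCm38, minus strand) had 45.8, 49.95 and 26.8 FPKM in Tshr-/- 1, 2 and 3, against 21.8, 22.4 and 37.0 FPKM in Tshr+/+ 1, 2 and 3. The libraries labelled Tshr-/- 1 and 2 were the highest and Tshr+/+ 1 and 2 the lowest, while the libraries numbered 3 lay between them in the opposite order, so the groups overlapped. Prss34 (ENSMUSG00000056399, chr17:25298394-25300161, plus strand), also known as mast cell protease 11, had 110.8, 109.9 and 62.4 FPKM in Tshr-/- libraries, against 53.6, 53.3 and 94.8 FPKM in Tshr+/+ libraries. The order of the libraries was nearly that of Mcpt8, and the groups overlapped in the same way.

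The ratio of Mcpt8 to Prss34 was nearly constant. It was 0.413, 0.455 and 0.428 in Tshr-/- 1, 2 and 3, against 0.407, 0.420 and 0.390 in Tshr+/+ 1, 2 and 3, a coefficient of variation of 5.18% over 6 libraries. The levels themselves had coefficients of variation of 35.8% for Mcpt8 and 34.0% for Prss34, and counting error alone would give 4.2% and 2.46%. The pair of proteases thus moved together across libraries, by more than counting error. In bulk RNA, fewer cells of a type and less RNA per cell cannot be told apart.

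Cpa3 (ENSMUSG00000001865, chr3:20215620-20242181, minus strand) encodes carboxypeptidase A3, a metalloprotease stored in the granules of mast cells and basophils. It had 7.74, 5.22 and 4.91 FPKM in Tshr-/- 1, 2 and 3, against 3.44, 2.31 and 4.74 FPKM in Tshr+/+ 1, 2 and 3, from 58 to 189 fragments per library. Cpa3 was the 1 gene of the 7 in which the groups did not overlap. The gap between Tshr-/- 3 and Tshr+/+ 3 was within counting error, with exact 95% Poisson intervals of 4.15 to 5.76 and 3.97 to 5.62 FPKM. Over all 10913 genes tested, the groups did not overlap in 6.77%, with Tshr-/- higher in 3.23% and lower in 3.55%. That share is given for reference only, since the genes were chosen with this contrast known.

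**Figure D2:**
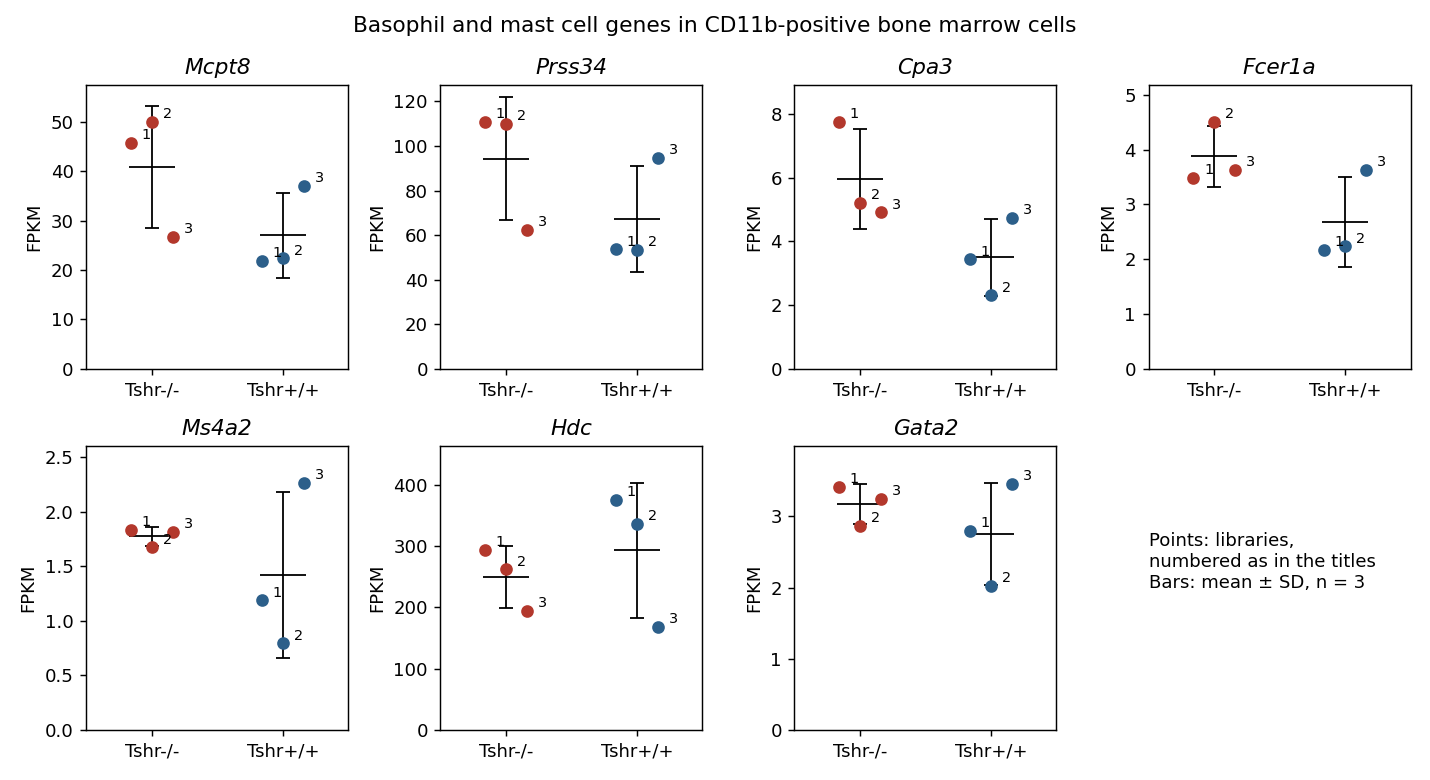
FPKM of each gene by library, with Tshr-/- on the left and Tshr+/+ on the right of each panel; points carry the number of the library, and bars give the mean and SD of 3 libraries. The points of Cpa3 do not overlap between the genotypes, while in Mcpt8 and Prss34 the libraries numbered 3 lie in the opposite order to the others.

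The IgE receptor is built from an alpha chain that binds IgE, a beta chain that amplifies the signal and a pair of gamma chains. Fcer1a (ENSMUSG00000005339, chr1:173221284-173227214, minus strand), the alpha chain gene, had 3.49, 4.50 and 3.63 FPKM in Tshr-/- 1, 2 and 3, against 2.18, 2.24 and 3.63 FPKM in Tshr+/+ 1, 2 and 3. Tshr+/+ 1 and 2 lay below the other libraries, and Tshr+/+ 3 lay above Tshr-/- 1. The counts were small, between 37 and 73 fragments per library, so that the interval of the lowest value ran from 1.53 to 3.00 FPKM. Ms4a2 (ENSMUSG00000024680, chr19:11615523-11623719, minus strand), the beta chain gene, had 1.83, 1.67 and 1.82 FPKM in Tshr-/- libraries, against 1.19, 0.794 and 2.27 FPKM in Tshr+/+ libraries. Its Tshr+/+ values enclosed those of Tshr-/-, with Tshr+/+ 3 the highest of the 6 libraries.

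Fcer1g, the gene of the gamma chain, which activating Fc receptors of many myeloid cells share, was far more abundant than the other chains. It had 504, 567 and 477 FPKM in Tshr-/- 1, 2 and 3, against 672, 784 and 589 FPKM in Tshr+/+ 1, 2 and 3. All 3 Tshr-/- values lay below all Tshr+/+ values, as in 3.55% of all genes tested. This was the reverse of the mean difference of the alpha chain, and the difference did not pass with limma (log2 fold change -0.40 ± 0.15 SE, adjusted p = 0.9997).

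Hdc (ENSMUSG00000027360, chr2:126593667-126619299, minus strand) encodes histidine decarboxylase, the enzyme that makes histamine, and in mouse bone marrow it is also expressed by cells of the neutrophil and monocyte lineages. It had 294, 262 and 195 FPKM in Tshr-/- 1, 2 and 3, against 376, 337 and 168 FPKM in Tshr+/+ 1, 2 and 3. Tshr+/+ 1 and 2, which were lowest for the proteases, were highest for Hdc, and the libraries numbered 3 were lowest. The ratio of Hdc to Mcpt8 ranged from 4.54 to 17.2, a coefficient of variation of 58.4%, against 5.18% for Mcpt8 over Prss34. Srgn, the gene of serglycin, the proteoglycan core that holds granule contents in many leukocytes, had 673, 573 and 435 FPKM in Tshr-/- libraries, against 807, 723 and 423 FPKM in Tshr+/+ libraries. Hdc and Srgn thus shared the order of the 6 libraries.

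Gata2 (ENSMUSG00000015053, chr6:88193891-88207032, plus strand), a zinc-finger transcription factor gene needed by basophils, mast cells and blood stem cells, had 3.42, 2.87 and 3.25 FPKM in Tshr-/- 1, 2 and 3, against 2.79, 2.02 and 3.46 FPKM in Tshr+/+ 1, 2 and 3. It varied least of the 7 genes, with a coefficient of variation of 18.1% beside a median of 15.9% over all genes tested, and its library order was the same as that of Ms4a2. The other 6 genes had coefficients between 27.6% and 38.9%. Counting error would give between 0.585% for Hdc and 13.4% for Fcer1a.

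**Figure D3:**
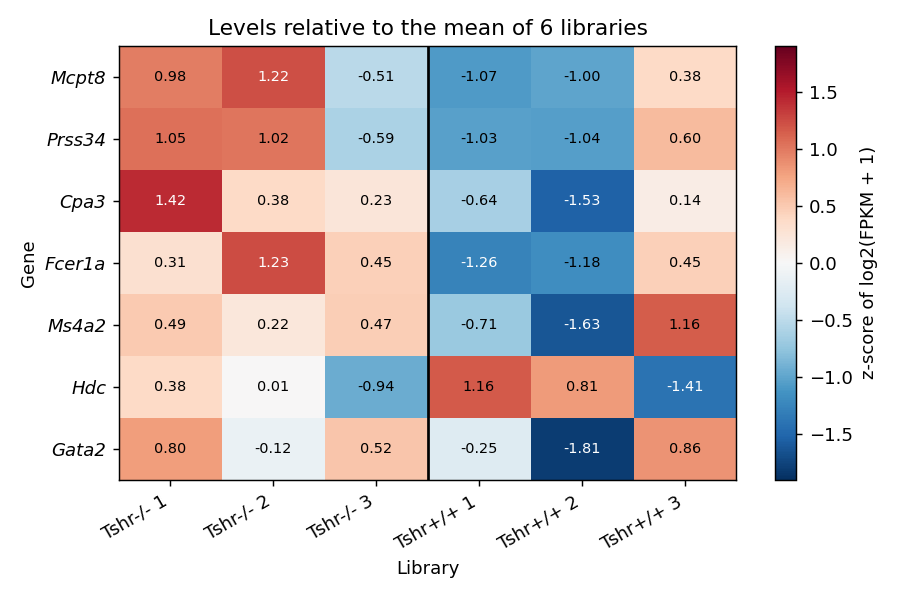
Level of each gene in each library as a z-score of log2(FPKM + 1) over the 6 libraries, with Tshr-/- libraries left and Tshr+/+ libraries right of the line; red is above and blue below the mean of the gene. Tshr+/+ 1 and 2 lie below the mean of the gene for the 6 genes other than Hdc and above it for Hdc.

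Across the 6 libraries the genes other than Hdc were positively correlated, to differing degrees. Among these 6 genes, Pearson's r of log2(FPKM + 1) lay between 0.56, for Mcpt8 with Gata2, and 0.99, for Mcpt8 with Prss34, and Spearman's rho for the same pairs was 0.54 and 0.89. The lowest rho was 0.43, for Fcer1a with Ms4a2 and with Gata2. Beside the ratio of Mcpt8 to Prss34, whose highest value was 1.16 times its lowest, the ratio of Gata2 to Mcpt8 varied 2.23-fold and that of Ms4a2 to Mcpt8 2.03-fold. With Hdc, Pearson's r lay between -0.80 for Ms4a2 and -0.35 for Mcpt8, and rho was -0.77 and -0.54. These coefficients describe 6 libraries that share genotype groups and replicate numbers, and no p is attached to them. The mean z-score of the 7 genes was also taken per library. Hdc itself had r = -0.45 with this mean, which thus mostly reflects the other 6 genes. Among 5586 protein-coding genes outside the list with a mean of at least 5 FPKM, 5 followed it most closely in log2 values. By r over 6 libraries they were Bloc1s2 (r = 0.98), Zfp276 (r = 0.96), Sec11a (r = 0.96), Taf12 (r = 0.96) and Fuca2 (r = 0.94). The r of these genes are high in part because they were picked as the highest. Their levels varied little: Bloc1s2 had 26.3, 25.2 and 23.3 FPKM in Tshr-/- 1, 2 and 3, against 22.5, 20.4 and 25.6 FPKM in Tshr+/+ 1, 2 and 3.

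Base sequences before the start site are shown for the 4 genes other than Hdc that hold the motif that GATA factors recognise, since Gata2 is among the 7 genes. The motif was searched as AGATAA or AGATAG, and also as TGATAA or TGATAG, on both strands in the 250 bases before each RefSeq start (GRCm38.p6), overlapping matches included, and no matches overlapped in the genes shown. RefSeq gave 8 starts for the 7 genes. Of the 8 windows before them 5 had a match, each in a different gene. Of all 32851 such windows, 26.5% had a match. Matches are in capitals, 5′ to 3′ along the strand of the gene, and the last base is the one before the start.
Cpa3, chr3:20242182-20242431, minus strand: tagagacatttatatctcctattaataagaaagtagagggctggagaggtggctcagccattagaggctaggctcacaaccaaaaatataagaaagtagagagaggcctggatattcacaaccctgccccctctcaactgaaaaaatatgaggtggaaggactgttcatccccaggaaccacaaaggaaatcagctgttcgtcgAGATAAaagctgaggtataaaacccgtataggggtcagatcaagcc
Prss34, chr17:25298144-25298393, plus strand: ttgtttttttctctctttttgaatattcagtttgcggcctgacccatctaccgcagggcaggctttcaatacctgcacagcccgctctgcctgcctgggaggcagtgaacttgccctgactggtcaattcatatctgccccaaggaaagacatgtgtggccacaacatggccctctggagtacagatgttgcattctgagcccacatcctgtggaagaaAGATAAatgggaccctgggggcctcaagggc
Ms4a2, chr19:11623720-11623969, minus strand: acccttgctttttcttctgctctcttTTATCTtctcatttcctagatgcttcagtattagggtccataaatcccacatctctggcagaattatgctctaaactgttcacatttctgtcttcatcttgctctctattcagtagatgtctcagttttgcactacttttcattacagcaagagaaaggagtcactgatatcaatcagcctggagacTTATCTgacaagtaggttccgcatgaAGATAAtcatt
Fcer1a, chr1:173227230-173227479, minus strand: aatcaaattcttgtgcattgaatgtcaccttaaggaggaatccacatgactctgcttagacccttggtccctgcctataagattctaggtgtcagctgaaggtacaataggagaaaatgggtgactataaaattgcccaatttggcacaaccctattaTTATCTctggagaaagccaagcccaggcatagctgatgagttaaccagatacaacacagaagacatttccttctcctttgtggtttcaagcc

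Counting the base before the start as -1, the match began at -46 in Cpa3 and at -31 in Prss34, both on the strand of the gene. Fcer1a held 1 match, at -92 on the opposite strand. Ms4a2 held 3 matches, at -224 and -37 on the opposite strand and at -11 on its own, and 2 or more matches were found in 6.40% of all windows. The window of Hdc held TGATAG at -221, and those of Mcpt8 and Gata2 held no match. Of the 250 bases before the start, 76 were annotated exon in Mcpt8 and all were in the second window of Gata2. Mcpt8, which had no match, was the gene closest to Prss34 by Pearson's r of its levels. Whether matches bear on the levels was not tested. A match is a string of letters and not a site of binding.

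Mcpt8 and Prss34 also share their setting, since each lies among related protease genes that were mostly at or near 0 here. Around Mcpt8, 17 other protein-coding genes overlap the 200 kb on either side, of which 8 were listed at 0 in all libraries and 3 reached 1 FPKM in every library. The mast cell protease genes Mcpt4, Mcpt2, Mcpt9 and Mcpt1, whose starts lie 23.0 to 67.3 kb from that of Mcpt8, had 3 fragments in all. On the other side, 17.3 kb away, Ctsg, the gene of the neutrophil protease cathepsin G, averaged 175 ± 42.1 FPKM in Tshr-/- and 133 ± 41.6 FPKM in Tshr+/+ libraries (SD, n = 3 each). Near Prss34, the tryptase genes Tpsab1, Tpsb2 and Tpsg1, 47.2 to 70.9 kb away, had 2 fragments in all, and Prss29, 20.3 kb away, had 0. Reads can be shared between close copies in such clusters, and the sources used here do not say how shared reads were counted, so the split between neighbours is uncertain.

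**Figure D4:**
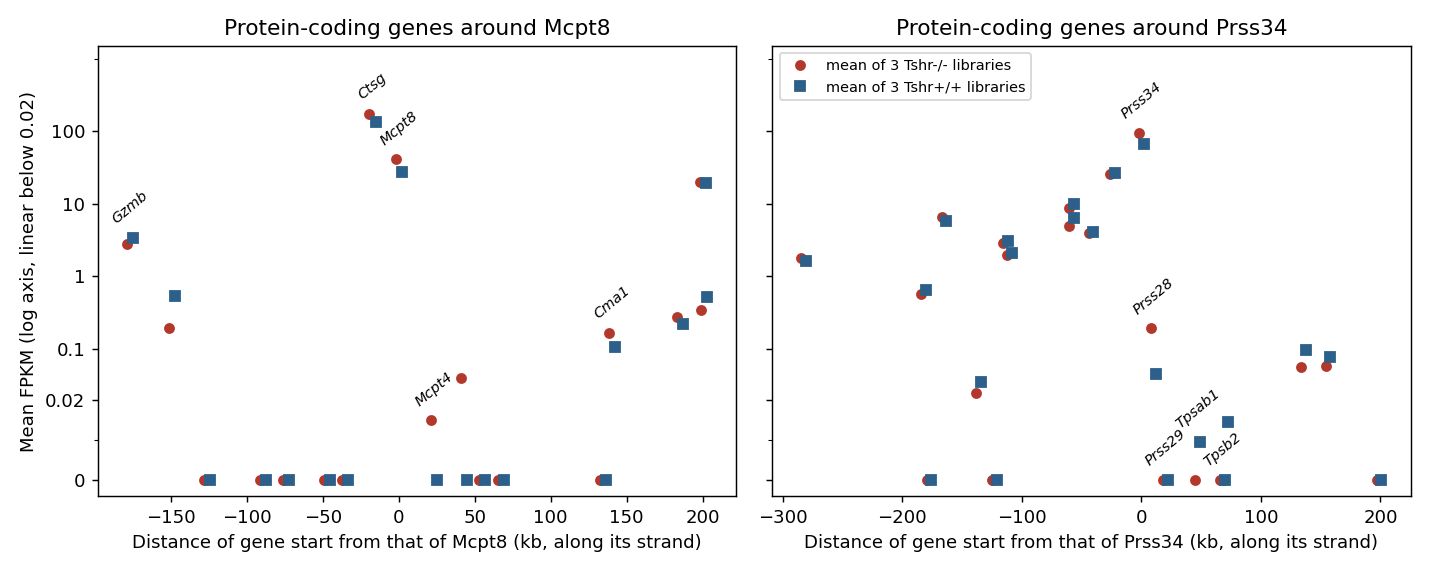
Mean FPKM of the protein-coding genes that overlap the 200 kb on either side of Mcpt8 (left) and Prss34 (right), against the distance between gene starts in kb; circles are means of 3 Tshr-/- and squares of 3 Tshr+/+ libraries, drawn 2 kb apart to each side, on a log axis that is linear below 0.02. Mcpt8 and Ctsg stand high among genes at or near 0, as does Prss34 beside the tryptase genes.

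The genotype differences of these genes changed with the libraries used. Those of Mcpt8 and Prss34 were largest without the libraries numbered 3, and those of Ms4a2 and Gata2 were smallest without Tshr+/+ 2. With limma on log2(FPKM + 1) over all libraries, the log2 fold changes of Tshr-/- over Tshr+/+ were 0.57 ± 0.29 (SE) for Mcpt8, 0.49 ± 0.31 for Prss34 and 0.64 ± 0.24 for Cpa3. They were 0.42 ± 0.18 for Fcer1a, 0.24 ± 0.22 for Ms4a2, 0.17 ± 0.16 for Gata2 and -0.17 ± 0.32 for Hdc. For the low genes the scale matters: Ms4a2 was at 0.42 with a pseudocount of 0.1 and at 0.51 with voom on whole fragments, and Gata2 at 0.28 with voom. The median of the 7 was 0.42, beside -0.01 over all 10913 genes tested. At the threshold of 0.05 on the adjusted p, 0 genes were called higher and 0 lower, or 0% of those tested, and so none of the 7. Of the 10913 genes, 317 had an unadjusted p under 0.05, a share smaller than the 0.05 expected if no gene differed. Fitted to whole fragments with voom, limma called 0 of 13709 genes, with 313 at an unadjusted p under 0.05, again a share below 0.05.

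Within replicate numbers, the ratio of Tshr-/- to Tshr+/+ FPKM was alike in numbers 1 and 2 and differed in number 3. For Mcpt8 it was 2.10, 2.23 and 0.723 in numbers 1, 2 and 3, and for Prss34 2.07, 2.06 and 0.659. For Cpa3 it was 2.25, 2.26 and 1.04, for Fcer1a 1.60, 2.01 and 1.00, and for Ms4a2 1.54, 2.11 and 0.801. Gata2 had ratios of 1.22, 1.42 and 0.939. Hdc ran the other way, with 0.783, 0.779 and 1.16. In number 3 the ratio was thus below 1 for 4 of the genes that exceeded 1 in numbers 1 and 2, and close to 1 for Cpa3 and Fcer1a.

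**Figure D5:**
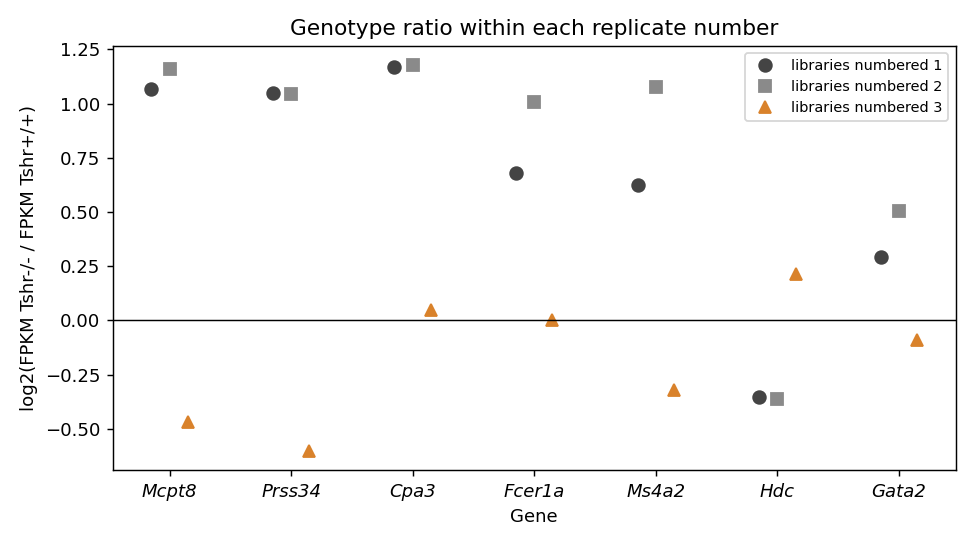
Log2 ratio of Tshr-/- to Tshr+/+ FPKM for each gene within the libraries numbered 1 (circles), 2 (squares) and 3 (triangles). For Mcpt8, Prss34 and Cpa3 the ratios of numbers 1 and 2 lie between 1.04 and 1.18, while those of number 3 lie between -0.60 and 0.05.

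Leaving out Tshr-/- 3 and Tshr+/+ 3, a choice made after the data had been seen, the log2 fold changes were 1.08 for Mcpt8, 1.03 for Prss34, 0.94 for Cpa3, 0.63 for Fcer1a, 0.47 for Ms4a2, 0.29 for Gata2 and -0.36 for Hdc. That fit called 13 genes higher and 11 lower of 10913 tested, and Mcpt8 and Prss34 were among the 13. The pair left out is the one in which Mcpt8 and Prss34 ran the other way. As the 7 genes and this selection of libraries were both chosen with the values known, these calls describe the 4 libraries left and are not a test. With Tshr-/- 1 and 2 left out, where Tshr fragments were found, 1 Tshr-/- library is set against 3 Tshr+/+ libraries and is assumed to vary as they do. The log2 fold changes were then 0.03 ± 0.35 (SE) for Mcpt8, -0.05 ± 0.39 for Prss34, 0.43 ± 0.35 for Cpa3, 0.35 ± 0.29 for Fcer1a, 0.27 ± 0.39 for Ms4a2, 0.19 ± 0.27 for Gata2 and -0.51 ± 0.51 for Hdc. In Tshr-/- 3, with its 1 fragment of Tshr, Mcpt8 and Prss34 lay between Tshr+/+ 2 and Tshr+/+ 3, and the value of Tshr+/+ 3 bears on this comparison as much as that of Tshr-/- 3.

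The other listed genes, which are genes of the pathways around the 7 and markers of basophils, mast cells and other cell types, gave no call. Of these 158 genes 97 were tested with limma over all genes, with 55 log2 fold changes above 0 and 42 below, and 0 were called higher and 0 lower, beside 0% of all genes tested. Of 16 genes of IgE receptor signalling 13 were tested, with 10 above and 3 below 0 and a median log2 fold change of 0.08. Lat2, an adaptor of that pathway, averaged 3.33 ± 0.892 FPKM in Tshr-/- and 4.87 ± 0.670 FPKM in Tshr+/+ libraries (SD, n = 3 each). In histamine handling 3 of 9 genes were tested, with a median of 0.23: Hnmt, which inactivates histamine, had 6.49 ± 0.830 and 5.41 ± 3.47 FPKM in Tshr-/- and Tshr+/+ libraries, and the histamine receptor gene Hrh2 had 4.33 ± 1.72 and 3.47 ± 0.938 FPKM. Both overlapped between the groups.

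The medians were 0.01 over 12 of 14 transcription factor partners, -0.01 over 9 of 10 genes of granule storage, -0.04 over 4 of 6 lipid mediator enzymes, -0.13 over 8 of 11 cytokine receptors and 0.14 over 4 of 8 cytokine products. Among them, the signal transducer gene Stat5b averaged 32.8 ± 2.76 FPKM in Tshr-/- and 28.7 ± 3.04 FPKM in Tshr+/+ libraries (SD, n = 3 each). Ptgs2, the inducible cyclooxygenase gene, had 59.2, 51.0 and 73.8 FPKM in Tshr-/- 1, 2 and 3, against 29.7, 29.8 and 79.6 FPKM in Tshr+/+ 1, 2 and 3. As for Mcpt8 and Prss34, Tshr+/+ 3 stood above Tshr-/- 3 while Tshr+/+ 1 and 2 were lowest. Csf2ra, a chain of the receptor for granulocyte-macrophage colony-stimulating factor, averaged 453 ± 70.8 FPKM in Tshr-/- and 526 ± 88.0 FPKM in Tshr+/+ libraries. None of these differences passed.

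Of the lists of other cell types, the erythroid one had the largest median log2 fold change, 0.76 over 4 of 7 genes tested, all of them globin genes and all above 0. The alpha globin gene Hba-a2 had 16.2, 14.3 and 8.78 FPKM in Tshr-/- 1, 2 and 3, against 2.64, 13.8 and 3.24 FPKM in Tshr+/+ 1, 2 and 3 (log2 fold change 1.17 ± 0.53 SE). The beta globin gene Hbb-bs had 64.8, 48.5 and 39.5 FPKM in Tshr-/- libraries, against 25.9, 48.8 and 20.2 FPKM in Tshr+/+ libraries (0.74 ± 0.33). Both overlapped between the groups through Tshr+/+ 2 and neither passed with limma (adjusted p = 0.9997 for each); globin genes are near-identical copies, so the split of reads between them is uncertain. The summed level of the 7 erythroid markers was 92.1 to 159 FPKM in Tshr-/- and 52.0 to 131 FPKM in Tshr+/+ libraries.

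The summed level of 7 T and NK cell markers was 99.3, 78.7 and 86.1 FPKM in Tshr-/- 1, 2 and 3, against 63.7, 64.3 and 80.6 FPKM in Tshr+/+ 1, 2 and 3. Most of that sum was Nkg7, a granule protein gene of killer lymphocytes, at 85.4, 69.0 and 73.5 FPKM in Tshr-/- libraries, against 57.4, 55.2 and 72.5 FPKM in Tshr+/+ libraries. The T cell receptor complex gene Cd3d went otherwise, with 2.57, 2.99 and 1.12 FPKM in Tshr-/- libraries, against 1.81, 2.89 and 1.85 FPKM in Tshr+/+ libraries, and its companion Cd3e was at 0 in 3 of 6 libraries. Tshr+/+ 1 and 2 were lowest for Nkg7, as they were for Mcpt8 and Prss34, but the order of the other libraries differed. For 10 stem and progenitor markers it was 6.51 to 8.41 FPKM in Tshr-/- and 6.11 to 6.71 FPKM in Tshr+/+ libraries, and for 10 eosinophil markers 646 to 1811 FPKM in Tshr-/- and 1004 to 1591 FPKM in Tshr+/+ libraries. Gzma, a granule protease gene of killer lymphocytes, had 8.96, 5.74 and 8.29 FPKM in Tshr-/- 1, 2 and 3, against 3.50, 5.16 and 4.25 FPKM in Tshr+/+ 1, 2 and 3, without overlap. Alox15, a lipoxygenase gene of eosinophils, averaged 31.9 ± 6.89 FPKM in Tshr-/- and 43.8 ± 3.53 FPKM in Tshr+/+ libraries (SD, n = 3 each), also without overlap. Neither passed with limma (adjusted p = 0.9997 for each). Of the 97 listed genes tested, 4 were without overlap with Tshr-/- higher, namely Gzma, Vav1, Il4ra and Ly6a. Alox15 and Fcer1g were the 2 without overlap with Tshr-/- lower. The groups did not overlap in 6.77% of all genes tested, so such genes were about as frequent among the listed ones. Single genes weighed heavily in the larger sums. The largest share came from S100a9 for neutrophil markers, Ly6c2 for monocyte markers and Prg2 for eosinophil markers. These averaged 46100, 399.5 and 737 FPKM over the 6 libraries. The sums were 76534.8 to 120457 FPKM in Tshr-/- and 94651 to 113820 FPKM in Tshr+/+ libraries for 8 neutrophil markers, and 546 to 685 FPKM in Tshr-/- and 526 to 605 FPKM in Tshr+/+ libraries for 6 monocyte markers. They were 10.95 to 23.1 FPKM in Tshr-/- and 10.2 to 18.6 FPKM in Tshr+/+ libraries for megakaryocyte markers, 2.89 to 3.62 FPKM in Tshr-/- and 1.78 to 3.18 FPKM in Tshr+/+ libraries for plasmacytoid dendritic cell markers, and 4.29 to 9.71 FPKM in Tshr-/- and 5.86 to 10.3 FPKM in Tshr+/+ libraries for B cell markers, 6 genes each. The median log2 fold changes were 0.29 over 4 T and NK cell markers, 0.23 over 2 stem and progenitor markers, 0.19 over 6 monocyte markers, -0.02 over 8 neutrophil markers, -0.03 over 4 megakaryocyte markers, -0.14 over 9 eosinophil markers and -0.24 over 2 B cell markers tested. The part of these markers in the differences of the 7 genes was not tested.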

How the data were processed

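The authors deposited 1 table of FPKM values with gene lengths and positions. The submitters' processing notes name GRCm38 and mm10 as builds. The sources used here give neither the aligner nor the counter, nor whether strand was used. Libraries were made from total RNA with a SMARTER mRNA-Seq kit, per the labels' protocols. The columns headed HO were read as Tshr-/- and those headed WT as Tshr+/+, each with the number of its title. Deposited FPKM multiplied by length gave whole fragments, checked on the lower values, of which 100% were whole within 0.01. At a length of 1 kb, a single fragment equals 0.0496 to 0.0713 FPKM. Poisson intervals and the limit of 3 fragments cover counting error only.

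The test kept genes that reached 1 FPKM in 3 or more of the 6 libraries, which all 7 genes did. It used limma 3.58.1 (R 4.3.3) on log2(FPKM + 1), a scale that understates the change of low genes. The model was by genotype with trended empirical Bayes, two-sided. Benjamini-Hochberg adjustment ran over all genes tested, with a threshold of 0.05. The fit was also run on simulated counts drawn independently for each library. Such counts lack the likeness between libraries seen here, so that run does not show how the test behaves on these data. Deviations from the group means correlated between libraries of the same number with r = 0.24, 0.26 and 0.47 for numbers 1, 2 and 3. Tshr-/- 1 with Tshr+/+ 2 had r = 0.34, above the values of numbers 1 and 2, so a pairing by number was not clear there. The number, which the labels do not explain, was also fitted as a block. The 7 genes, all lists and the alternatives were chosen with earlier results of these data known. Named are the 7 genes, Tshr, the basophil and mast cell markers and the 5 genes most alike in pattern. From each other list the 2 genes of smallest p and the most abundant gene could be named, and only some of these are, picked with their values seen. Itgam, Cd3d, Cd3e and the neighbours by position were added likewise. Mir6949 and Mir7007 overlap Mcpt8 and Cpa3 on the same strand.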

Additional observations from a re-analysis of the deposited data

How the results depend on the processing

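Under 19 alternatives the count of genes called, 0 higher and 0 lower with limma over all libraries, was the same except for the following. Array weights called 13 higher and 11 lower genes, none of the 7 among them. Leaving out both libraries numbered 3, chosen after seeing the data, called 13 higher and 11 lower of 10913 tested, Mcpt8 and Prss34 included. As said above, that result is a description of the libraries left. Leaving out each library in turn called between 0 and 2 higher genes and 0 lower, the 2 without the library labelled Tshr-/- 3. With the replicate number as a block, 0 genes were called higher and 0 lower, and 651 had an unadjusted p under 0.05. No listed gene outside the 7 was called under any of the 19 alternatives (0 genes). Leaving out 1 library at a time gave log2 fold changes of 0.40 to 0.84 for Mcpt8, 0.35 to 0.76 for Prss34, 0.44 to 0.84 for Cpa3, 0.33 to 0.60 for Fcer1a, 0.05 to 0.49 for Ms4a2, 0.02 to 0.30 for Gata2 and -0.53 to 0.05 for Hdc. The values of Ms4a2 and Gata2 were lowest without Tshr+/+ 2, and Hdc turned positive without Tshr+/+ 1 and stood at 0.00 without Tshr-/- 3. Array weights gave 1.13 for Cpa3, 0.91 for Mcpt8 and Prss34, 0.53 for Ms4a2 and 0.40 for Gata2. The filter on a mean of 5 FPKM kept 3 of the 7 genes. The cause of these shifts was not tested. Counting error, 13.4% for Fcer1a and 11.4% for Ms4a2, was smaller than the variation between libraries, 27.6% and 32.8%.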

Other observations

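Ms4a2 lies in the cluster of Ms4a genes on chromosome 19, and neighbours chosen after their values were seen are given here. Ms4a6d, whose start lies 18.9 kb from that of Ms4a2, averaged 8.02 FPKM in Tshr-/- and 4.78 FPKM in Tshr+/+ libraries. Ms4a6c and Ms4a4c, genes of the same family, averaged 23.4 and 26.6 FPKM in Tshr-/- and 19.2 and 22.2 FPKM in Tshr+/+ libraries. Ms4a3, 17.1 kb away on the other side, was the most abundant gene within 200 kb. In the tryptase locus, Prss28 had 13 fragments over the 6 libraries, with a mean of 0.192 FPKM in Tshr-/- and 0.0454 FPKM in Tshr+/+ libraries.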
